A study of Mus musculus with 8 samples.

Results

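The imprinted Dlk1-Dio3 domain of mouse chromosome 12 holds one of the largest groups of microRNAs (miRNAs) in the genome, and 52 of its miRNAs, chosen by name, were followed here in liver. All 52 had probes on the array, among 567 mouse miRNAs in all, which leaves 515 mouse miRNAs outside the group. The series compared livers of diabetic db/db mice with those of db/+ controls, 4 mice of each, with 1 Agilent mouse miRNA array (V1) per mouse. The db/db mouse carries both copies of the leptin receptor mutation db and becomes obese and diabetic, while db/+ mice carry 1 copy. Both are on the C57BL/KsJ background, no treatment is named, the age of the mice taken is not given in the sources used here, and the series text reports higher body weight and plasma glucose in db/db. The genotype is called the strain below.

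In this domain the protein-coding genes Dlk1, Rtl1 and Dio3 are expressed from the paternal chromosome, whereas the long non-coding RNAs Meg3, antisense Rtl1, Rian and Mirg, and the miRNAs processed from them, come from the maternal chromosome. The miRNAs are abundant in the embryo, the placenta and the brain and are low in most adult tissues, and several of them have been found raised in liver tumours. A miRNA recognises its messenger RNA targets mainly through its seed, bases 2 to 8 of the mature strand.

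The members lie between positions 110801929 and 110981994 of chromosome 12 in the array files' mm9 coordinates, an interval of 180.1 kb. Along it, 16 members, from miR-770 to miR-370, form an upstream segment, followed by 90.7 kb without a member and then by 36 members, from miR-379 to miR-410, within 34.7 kb. By RefSeq gene records of assembly GRCm38.p6, read without regard to strand, the 2 arms of miR-770 lay within Meg3, 13 members within Rtl1, miR-370 within Rian and 10 members within Mirg. The other 26 lay within no such record. Members are named as in the array files, there with the species prefix mmu for mouse. On these arrays a star marks the arm that the array's design took for the minor one.

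Mature sequences of 48 of the 52 members were found in RefSeq (GRCm38.p6), and the seeds of these 48 were all different. The first 5 shown belong to members that the results below turn on, because they were detected on several arrays or because their scaled values separated the strains. They are written 5′ to 3′ with the seed in capitals.
miR-494-3p: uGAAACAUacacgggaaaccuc
miR-370-3p: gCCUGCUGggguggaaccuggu
miR-379-5p: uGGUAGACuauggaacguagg
miR-377-3p: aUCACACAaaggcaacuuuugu
miR-154-5p: uAGGUUAUccguguugccuucg
miR-127-3p: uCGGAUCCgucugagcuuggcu
miR-376b-3p: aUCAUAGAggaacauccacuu
miR-376a-3p: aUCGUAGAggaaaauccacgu
miR-300-3p: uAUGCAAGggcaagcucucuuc
miR-381-3p: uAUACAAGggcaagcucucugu
miR-127, which pairs with the Rtl1 messenger RNA across its whole length, stands for the members within Rtl1. The last 4 are a pair of close relatives each: miR-376b and miR-376a differ at 3 of 21 positions, and miR-300 and miR-381 at 3 of 22. Probes for such relatives may share signal, and how much was not tested. The 4 members without a matched sequence were miR-487b, miR-376c, miR-485 and miR-337-5p.

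A level is given as scaled signal, the background-subtracted spot brightness averaged over a miRNA's spots and probes and divided by a factor per array that brings its median over the 89 mouse miRNAs detected on all 8 arrays to a common value. These factors were 5.63, 0.564, 1.58 and 0.210 in db/+ replicates 1 to 4 and 0.847 to 1.06 in db/db, so that db/+ replicate 1 was the brightest array and db/+ replicate 4 the dimmest. Detection is the scanner software's own flag per miRNA and array. All 3 hepatocyte markers (miR-122, miR-192 and miR-194) were detected on all 8 arrays, with a summed scaled signal of 29923 to 72318 in db/+ and 51075 to 55164 in db/db. Of 4 neural markers on the array, miR-124, miR-9 and miR-9* were detected on no array, and miR-137 on db/+ replicates 1 and 3 alone (sum of the list, with values below 0 set to 0, 0 to 14.5 in db/+ and 9.77 to 11.2 in db/db). The 4 skeletal muscle markers were detected on none. All 8 arrays were on 1 slide, with db/db in one row of arrays and db/+ in the other, so effects of row and genotype cannot be told apart. In whole liver, fewer cells of a type and less of a miRNA per cell cannot be told apart either.

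Most of the cluster was below detection in these livers. Of the 52 miRNAs, 32 (61.5%) were detected on no array, against 271 of the 515 other mouse miRNAs (52.6%). At the other end 2 members (3.85%), miR-494 and miR-487b were detected on all 8 arrays, against 87 of the others (16.9%). The remaining 18 were seen on 1 to 4 arrays. The map of the cluster shows this as a pair of bright rows in an otherwise dim field.

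**Figure D1:**
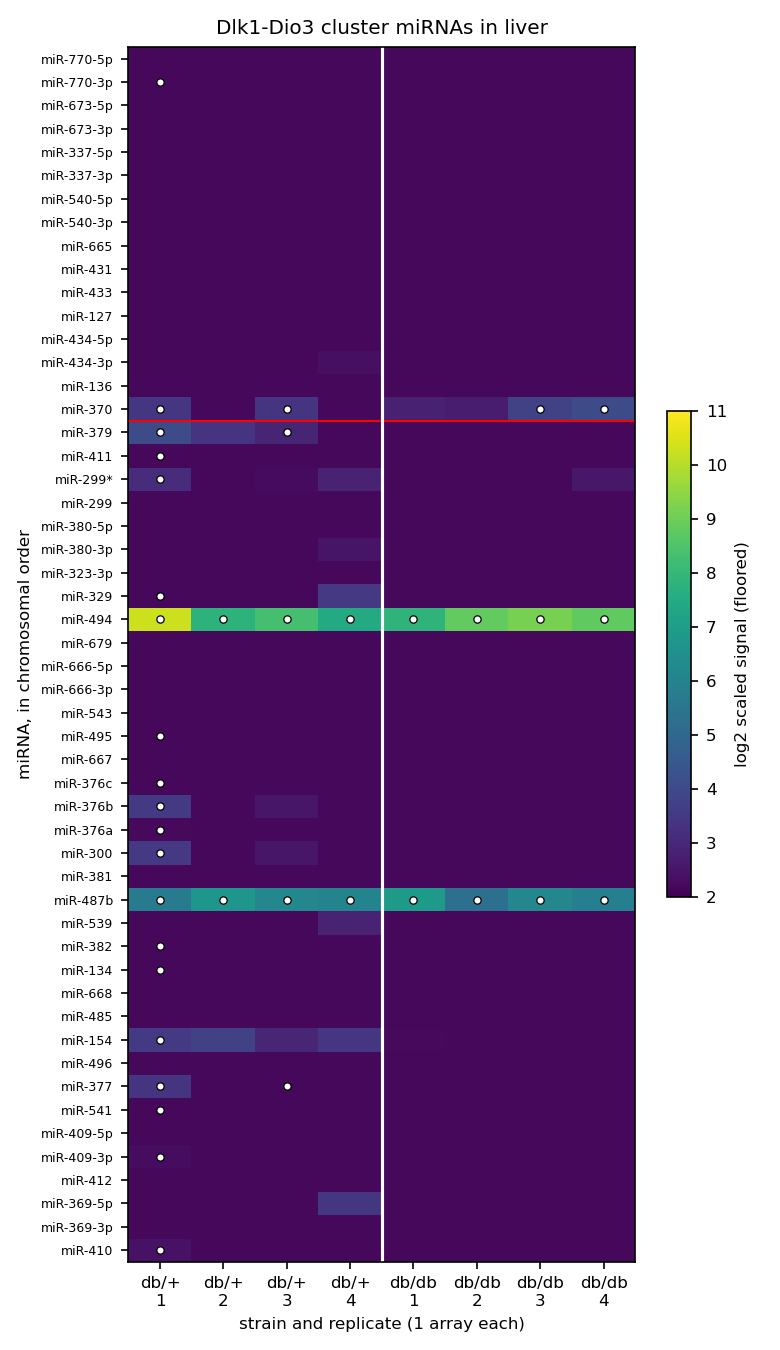
Each row is one of the 52 cluster miRNAs in chromosomal order, each column 1 array, and the colour the log2 scaled signal after a floor of 4.59; a white dot marks detection. The red line separates the upstream 16 from the 36 miRNAs of miR-379 to miR-410, and the dots fill the column of db/+ replicate 1 (20 members) far more than any other.

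In db/+ livers 20, 2, 5 and 2 members were detected per array, a mean of 7.25 ± 8.62 (SD, n = 4). In db/db livers there were 2, 2, 3 and 3, a mean of 2.5 ± 0.577 (SD, n = 4). The counts overlapped, and the high db/+ mean came from the brightest array: the difference, db/db minus db/+, was -4.75 with it and -0.5 without db/+ replicate 1. On that array 38.5% of the members were detected, against 45.6% of the other mouse miRNAs. On the other 7 arrays the members stood at 3.85% to 9.62% and the others at 17.3% to 31.8%.

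**Figure D2:**
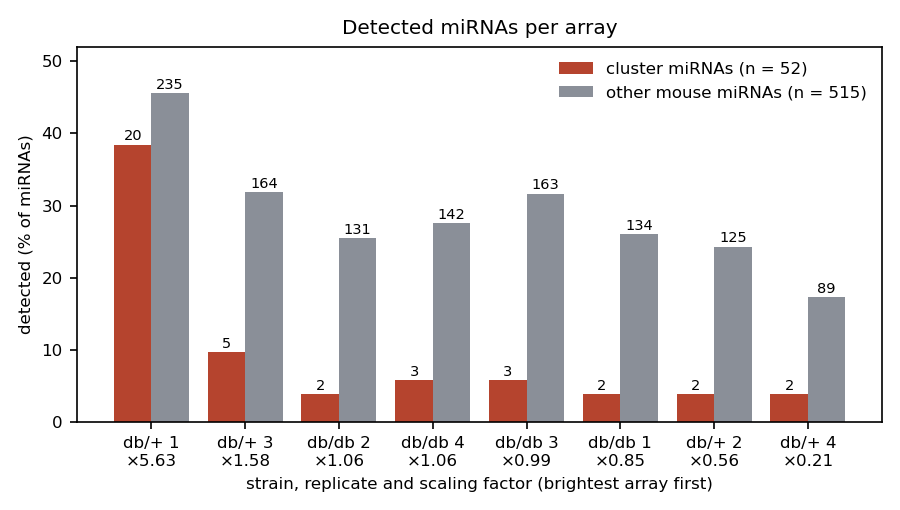
Bars give the percentage of the 52 cluster miRNAs and of the 515 other mouse miRNAs detected on each array, with the number of miRNAs above each bar; arrays run from the brightest to the dimmest by scaling factor. The cluster's share falls from 38.5% on db/+ replicate 1 to 9.62% on db/+ replicate 3 and 3.85% or 5.77% elsewhere.

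Detection on db/+ replicate 1 alone accounted for 15 members (28.8%), against 58 of the others (11.3%). Only 5 members (9.62%) were detected on any other array, namely miR-494, miR-487b, miR-370, miR-379 and miR-377, against 186 of the others (36.1%). On the db/db side 3 members were detected on at least 1 array: miR-494, miR-487b and miR-370. These shares describe the arrays and carry no test.

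Detection was also counted along the chromosome. Of all 567 mouse miRNAs, 264 were detected on at least 1 array and 191 (33.7%) on an array other than db/+ replicate 1. None of the 13 members within Rtl1 (both arms of miR-673, miR-337, miR-540 and miR-434, and miR-665, miR-431, miR-433, miR-127 and miR-136) was detected on any array. These include the miRNAs that lie antisense to Rtl1 and can direct its cleavage. In the whole upstream segment 2 of 16 members were detected on any array: miR-370, and miR-770-3p on db/+ replicate 1 alone. From miR-379 to miR-410, 18 of 36 were detected on at least 1 array and 4 on an array other than db/+ replicate 1. Upstream, 1 of 16 was detected on such another array, so the contrast between the segments rests mostly on db/+ replicate 1. Within Mirg 5 of 10 were detected on at least 1 array, with miR-377 the only one seen on a second array. Among the 26 outside such records 13 were, with miR-494, miR-487b and miR-379 seen on others.

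mmu-miR-494 was detected and well above background on all 8 arrays. On db/+ replicate 4 this rested mostly on 1 probe, with 10 of 10 spots well above background, against 1 of 10 for the other probe. miR-494 lies at chr12:110953584-110953598 (mm9, the span of the probes' target) in the miR-379 to miR-410 segment, within none of the 4 gene records above. Its scaled signal was 1271, 226, 328 and 183 in db/+ replicates 1 to 4 and 231, 458, 576 and 444 in db/db replicates 1 to 4. The highest array was db/+ replicate 1 and the lowest db/+ replicate 4, with all db/db arrays between them, so the strains overlapped. On the log2 scale the means were 8.50 ± 1.26 in db/+ and 8.66 ± 0.57 in db/db (SD, n = 4). The difference, db/db minus db/+, was 0.16 (SE 0.55, 95% interval -1.07 to 1.40), a fold of 1.12 with an interval of 0.476 to 2.63, and did not pass limma's test (adjusted p = 0.877 over 127 miRNAs; 0.135 to 0.996 over the alternatives). Its sign rested on single arrays: it was 0.77 when db/+ replicate 1 was left out (limma adjusted p = 0.135), and lay below 0 when the array left out was db/+ replicate 2 (-0.066) or 4 (-0.27) or the third db/db array (-0.0075).

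The spread of miR-494 within strains was wide for this data set. Its SD on the log2 scale was rank 2 from the largest among 127 tested miRNAs in db/+ (median SD of the 127, 0.341) and rank 5 in db/db (median 0.177). Before scaling it ranged 185.6-fold among the db/+ arrays, from 38.6 to 7157, where the scaling factors ranged 26.8-fold. After scaling 6.94-fold remained in db/+ and 2.50-fold in db/db. The 2 probes for miR-494 gave differences of 0.22 and 0.03. Spots of a probe within an array varied by a median CV of 6.78% and 9.42%, but by 38.2% and 38.7% on db/db replicate 2 and by 19.1% and 15.3% on db/db replicate 3, so its level on those arrays is less precise.

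mmu-miR-487b, at chr12:110965596-110965613 (mm9) in the same segment, was detected on every array. It was well above background on 3 of 4 db/+ and on all 4 db/db arrays. Its scaled signal was 54.1, 107, 72.6 and 67.3 in db/+ replicates 1 to 4 and 120, 39.3, 71.2 and 58.9 in db/db. Both the highest value, replicate 1, and the lowest, replicate 2, were in db/db, and the db/+ values lay between them. The log2 means were 6.19 ± 0.41 in db/+ and 6.06 ± 0.67 in db/db (SD, n = 4). The difference of -0.13 (SE 0.33, 95% interval -0.86 to 0.61; a fold of 0.916, interval 0.550 to 1.53) did not pass limma's test (adjusted p = 0.850; 0.356 to 0.993 over the alternatives). It was 0.057 without db/+ replicate 2 and 0.13 without db/db replicate 2. Its SD was rank 47 of 127 in db/+ and rank 3 in db/db, and its 2 probes gave differences of -0.24 and -0.07.

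**Figure D3:**
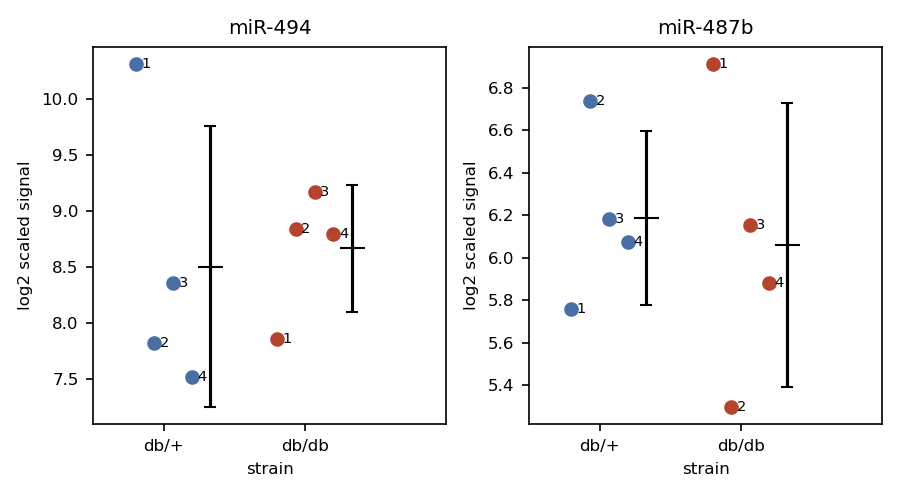
Points give the log2 scaled signal of miR-494 and miR-487b on each array, numbered by replicate, and the bars beside them the mean ± SD (n = 4 per strain); the vertical axes differ and do not start at 0. The strains overlap for both, and db/+ replicate 1, the highest array for miR-494 at 10.31, is the lowest db/+ array for miR-487b at 5.76.

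miR-494 and miR-487b were the only members that could be tested, since a miRNA entered limma if every array of either strain detected it. Of the 127 mouse miRNAs tested 19 passed (15.0%), 12 of them higher and 7 lower in db/db, and 33 had an unadjusted p under 0.05. Of the 2 members 0 passed, 0 had an unadjusted p under 0.05, and SAM called 0 as well. The strains did not overlap for 29 of the 127 (22.8%) and for 0 of these 2. The median log2 difference was 0.15 over all tested miRNAs and 0.018 over the pair. With 2 members the count says little against a background of 15.0%. The intervals above still allow a level in db/db of 0.476 to 2.63 times that in db/+ for miR-494 and of 0.550 to 1.53 times for miR-487b.

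The other members were at or near the limit of detection, so their values are given before the floor, where noise around 0 gives values below 0. mmu-miR-370, reported to act on lipid metabolism in hepatocytes through the carnitine palmitoyltransferase gene Cpt1a, lies at chr12:110856522-110856536 (mm9) within Rian. It read 10.7, 3.79, 10.5 and 0.216 in db/+ and 7.13, 6.52, 13.5 and 17.1 in db/db. It was detected on db/+ replicates 1 and 3 and on db/db replicates 3 and 4, and the strains overlapped. It was the only member beyond miR-494 and miR-487b detected in db/db. It was well above background on 1 array, in db/+.

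mmu-miR-379, the first miRNA of its segment and reported to act on lipid handling in liver, lies at chr12:110947280-110947295 (mm9). Its scaled signal was 16.5, 10.2, 7.64 and -12.5 in db/+ and -0.691, -0.923, -0.0210 and -0.362 in db/db. Thus 3 of the 4 db/+ arrays were above all db/db arrays and the dimmest, replicate 4, was below them. The detected arrays were db/+ replicates 1 and 3. The same 2 arrays detected miR-377, a miRNA reported to rise in kidney cells under high glucose, at chr12:110978765-110978784 (mm9) within Mirg. It read 10.3, 4.21, 4.60 and -3.65 in db/+ and -1.19, -1.08, 0.993 and -1.56 in db/db. Again db/+ replicate 4 was the only db/+ array in or below the db/db range. miR-377 was well above background on no array. On db/+ replicate 3 the scanner software's total signal for it was 1.91 times its own error. Its 2 probes differed, at scaled signals of 18.5 and 2.08 on db/+ replicate 1 and of 10.6 and -1.42 on replicate 3. On db/+ replicate 4 the lowest scaled signal of any detected miRNA was 25.9, above every value given here for either miRNA.

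mmu-miR-154 was the one member whose strains separated in scaled signal with a detection behind it. It lies at chr12:110976650-110976669 (mm9) within Mirg. Its scaled signal was 11.6, 13.6, 7.83 and 10.8 in db/+ and 4.71, 4.01, 3.20 and 3.88 in db/db, so every db/+ array was above every db/db array. Before scaling, the dimmest array, db/+ replicate 4, read 2.27, below the 3.18 to 4.27 of the db/db arrays. The full separation thus rests on the scaling of that array. miR-154 was detected on db/+ replicate 1 alone. On the other 7 arrays, the scanner software's total signal for it was 0.579 to 3.46 times its own error. It was well above background on 1 array in db/+ and on none in db/db, where its level is therefore only a bound, and no fold above 1 could be stated against that bound.

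When limma was run on all 567 mouse miRNAs with no filter on dim ones, 4 were called (0.705%). miR-154 was the only one of the 52 members among them. This fit also held miRNAs at the floor on all 8 arrays. They have no spread but enter limma's variance estimate and the adjustment, so its adjusted p-values and the 0.705% are only rough. The limma adjusted p of miR-154 was 0.0462, but 3 of its 4 db/db values were equal at the floor. The floor thus sets both the size of the difference and its spread, and no size is given. The adjusted p ran from 0.0170 to 0.996 over 15 alternatives, of which 6 kept the call. Leaving out 1 array, the call held in 2 of 8 fits, those without db/+ replicate 3 and without db/+ replicate 4. It did not hold with raw median spot intensity (limma adjusted p = 0.996) or with normexp background correction (limma adjusted p = 0.827).

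Before the floor, the strains did not overlap for 3 of the 52 members (5.77%), against 6.53% of all mouse miRNAs, so such separation was no more frequent in the cluster than on the array as a whole. miR-154 was higher in db/+, as were 2.12% of all mouse miRNAs. The others were miR-127 and miR-136, both higher in db/db, at 1.88 to 4.59 against -12.2 to 1.60 in db/+, and detected on no array. Before scaling, db/+ replicate 1 was the highest array for both. It read 9.03 for miR-127, against 2.00 to 3.98 in db/db, and 8.48 for miR-136, against 2.12 to 3.89. The separation of these 2 thus rests on the scaling as well.

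The next 6 members were each detected on db/+ replicate 1 alone. miR-299* read 8.92, 1.18, 4.86 and 7.39 in db/+ and 1.06, 1.98, 2.51 and 5.99 in db/db. The star marks it as the minor arm by the array's design, yet the other arm, miR-299, was detected on no array. miR-329 read 3.38, -0.560, 2.36 and 11.2 in db/+ and 2.56, 0.269, 1.70 and 1.78 in db/db. Its highest value, on db/+ replicate 4, came without detection. miR-300 and miR-376b followed one pattern, with db/+ replicate 1 highest, replicate 3 next and replicate 4 lowest. miR-300 gave 11.4, 1.51, 5.83 and -8.16 in db/+ and -0.876, 0.803, -0.805 and 0.169 in db/db. miR-376b, from a group whose transcripts undergo adenosine-to-inosine editing, gave 11.4, -0.103, 5.83 and -4.64 in db/+ and -1.25, -2.03, 0.352 and -2.37 in db/db. Of their close relatives printed above, miR-381 was detected on no array, unlike miR-300, and miR-376a on db/+ replicate 1 alone, as miR-376b was.

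miR-410, the last member of the cluster, read 5.49, 0.558, 2.14 and -2.24 in db/+ and -2.11, -1.53, 1.48 and -1.58 in db/db. miR-495 read 2.98, -0.536, 0.883 and -2.31 in db/+ and -1.64, 0.136, 2.16 and -0.0095 in db/db. For both, the strains overlapped and the detected array was the highest. The remaining 8 detected members were miR-376c, miR-382, miR-411, miR-409-3p, miR-134 (a regulator of Limk1 in neurons), miR-541, miR-376a and miR-770-3p. They read 1.64 to 4.88 on db/+ replicate 1, where they were detected, and -22.6 to 3.88 on the others, where they were not.

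**Figure D4:**
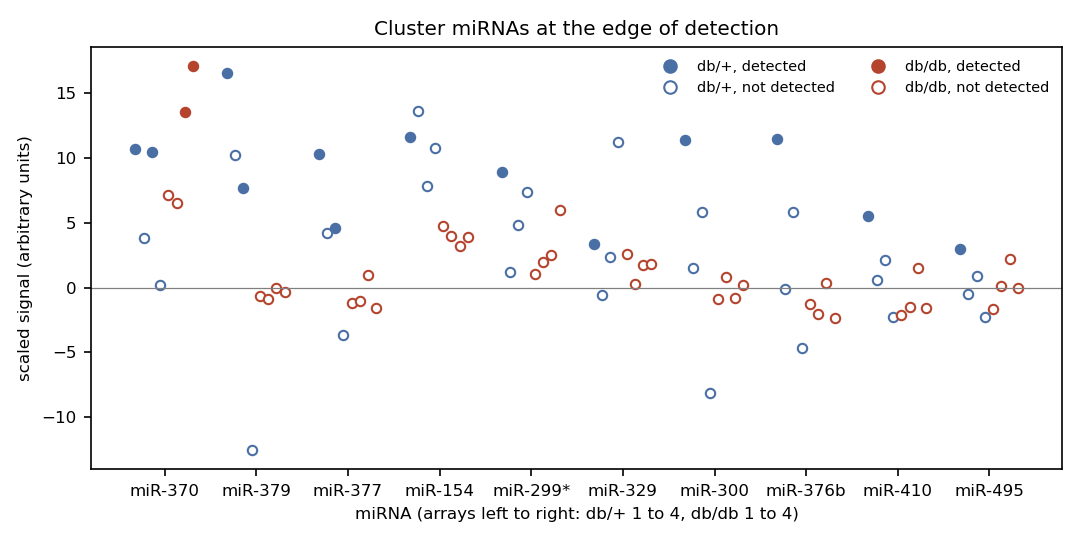
Points give the scaled signal, before the floor, of the 10 members named with values beyond miR-494 and miR-487b, with db/+ arrays in blue and db/db arrays in red from replicate 1 to 4, and filled points where the miRNA was detected. Filled points lie at 2.98 to 17.1, the 2 filled db/db points are both miR-370, and miR-154 is the one member drawn here whose blue and red points do not overlap.

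Among the 15 members detected on db/+ replicate 1 alone, 12 had their highest scaled signal there, which choosing them by detection on that array favours. Their median on that array was 3.76 (range 1.64 to 11.6). The lowest scaled signal of any miRNA detected there was 1.25. It was 13.1, 0.566 and 25.9 on the other db/+ replicates and 6.07, 6.95, 3.09 and 3.11 on the db/db replicates. A signal above these values was not always detected, as miR-154 shows at 7.83 on db/+ replicate 3. Of the 15, 4 read above 6.95, the highest of the db/db values, on db/+ replicate 1. On the db/db arrays the 15 read -3.98 to 5.99.

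The 32 members detected on no array were the 13 within Rtl1 and miR-770-5p, miR-299, miR-380-5p, miR-380-3p, miR-323-3p, miR-679, miR-666-5p, miR-666-3p, miR-543, miR-667, miR-381, miR-539, miR-668, miR-485, miR-496, miR-409-5p, miR-412, miR-369-5p and miR-369-3p. Their scaled signal lay between -28.4 and 11.0 over all arrays, the extremes on the dimmest one, and reached at most 4.59 on db/db arrays. On db/+ replicate 1 it lay between -0.905 and 1.60 (median -0.176), whereas the 15 members detected only there had a median of 3.76. Detection on that array defines both groups, so this gap is no separate result.

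The authors' deposited scores hold 139 miRNAs, and of the 52 members again only miR-494 and miR-487b. These are log values whose base is not given in the sources used here. In the authors' deposited scores miR-494 was 2.49, 1.75, 2.03 and 1.67 in db/+ and 1.81, 2.09, 2.14 and 2.01 in db/db. The scores placed miR-487b at 1.43, 1.51, 1.52 and 1.51 in db/+ and 1.61, 1.30, 1.43 and 1.33 in db/db. As in the scaled signal, db/+ replicate 1 was the highest array for miR-494 and db/db replicate 1 the highest for miR-487b. limma on these scores gave differences of 0.025 (adjusted p = 0.936) and -0.072 (adjusted p = 0.615).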

How the data were processed

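Total RNA of frozen liver, 100 ng per sample, was labelled with Cy3, per the labels. Per the file headers, spot intensity was extracted and background-subtracted with Feature Extraction 9.5.3.1 (the series text names 9.3.5) without scaling between arrays, so it can lie below 0. The authors' deposited score per miRNA is global median normalized and log transformed, per the series text. The other deposited values, flags for detection, background and outliers are those the authors left in the scanner files.

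Control and outlier spots were left out, spots were averaged per probe and probes per miRNA on the linear scale, and arrays were scaled as described. Before log2, values under 4.59 were raised to it; this floor is the median of the arrays' lowest detected signals. The two-sided moderated test of limma 3.58.1 (R 4.3.3) had strain as its only term and all 8 arrays, with Benjamini-Hochberg adjustment over 127 miRNAs and a threshold of 0.05. SAM, at a false discovery rate of 5%, used the 70 possible labellings of the arrays. Both were checked on simulated data. Replicates are separate animals, per the series text, and 4 arrays per strain limit the precision.

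Named with values were 12 members: those tested, then those detected on most arrays, with ties broken by the higher mean scaled signal over all arrays. Members and lists were chosen with earlier results of these data known. RefSeq arms were matched by spacing along the cluster (within 3 bases) and by miRNA number, without converting coordinates. Alternatives were other scalings, background correction, floors, filters and tests, and leaving out each array.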

Additional observations from a re-analysis of the deposited data

Results flagged for a closer look

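Over 18 groups of 4 arrays with any spread (the detection count and the log2 signal of the named members, by strain), 6 had 1 array far from the other 3, where chance gives about 1 in 20. The count of members detected in db/+ was one, with 20 on replicate 1. In the log2 signal of db/+ they were miR-377 at 3.36 and miR-410 at 2.46 on replicate 1, and miR-329 at 3.49 on replicate 4, where it was not detected. In db/db they were miR-154 at 2.23 on replicate 1 and miR-299* at 2.58 on replicate 4, both without detection. In these 5 signal groups the other 3 arrays lay at the floor or within 0.01 of it, so the gap measures the distance to the floor. The rate of 1 in 20 does not hold for such groups.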

How the results depend on the processing

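Across 29 alternatives, the number of cluster miRNAs past the threshold was 0, apart from 1 (miR-154) with no filter. The count over all miRNAs was 19 and became 0 with no scaling between arrays, 1 with raw median intensity, 2 with normexp, 3 with the authors' deposited scores, 4 with no filter, 42 with array weights, 9 without the brightest and the dimmest db/+ array, and 6 with cyclic loess over all mouse miRNAs; leaving out 1 array gave 11 to 20, with 11 without db/db replicate 2 and 12 without db/db replicate 3. Leaving out the brightest and the dimmest array was chosen after seeing the data. Quantile normalization and cyclic loess were run as planned over all mouse miRNAs (16 and 6 called); their runs over the tested miRNAs alone (18 and 21) were added after those counts were seen. The log2 difference of miR-494 was -0.096 with raw median intensity and -0.39 with array weights, and positive in the other 18 of 20 such settings; leaving out 1 array gave -0.27 to 0.77. That of miR-487b was below 0 in all 20 such settings (-0.45 to -0.093), and leaving out 1 array gave -0.41 to 0.13. These settings are not independent. Both miRNAs were detected on every array and lay above each floor. The floors, the filters, the replicate block and SAM therefore left the differences at 0.16 and -0.13. Those settings say nothing about whether the sign is stable. Cluster miRNAs detected per array, db/db minus db/+, ran from -6.5 to -0.5 leaving out 1 array. The alternatives for miR-154 were chosen after seeing the data; with the higher floor its 8 values are equal. The cause of these shifts was not tested.

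Replicate numbers 3 and 4 occur in the titles of both strains, and no label names a pairing. Same-numbered arrays deviated together with a correlation of 0.036 and 0.307 over 127 miRNAs. These correlations cannot show whether such samples share more than a number. With the replicate block, 18 miRNAs were called and the differences of miR-494 and miR-487b had limma adjusted p of 0.884 and 0.868. Scaling by the median over all mouse miRNAs was not run, because that median was at or below 0 on 3 arrays. Of 48 mean levels of named members under other scalings, 24 stayed within 1 SD and 24 moved further. Where every array of a strain lay at the floor, the SD was 0, and any change of the floor counted as a move. This held for miR-379, miR-377, miR-329, miR-300, miR-376b, miR-410 and miR-495 in db/db and for miR-495 in db/+. Such moves do not measure how a level depends on scaling. Signal over background limits 50 of the 52 members: on db/+ replicates 2 and 4 nothing under a scaled signal of 13.1 and 25.9 was detected.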

Other observations

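The interval between the first and the last member holds 21 further mouse miRNAs on the array, mostly opposite arms of members. Of these 4 were detected, each on db/+ replicate 1 alone, and 0 were tested. miR-154*, the opposite arm of miR-154, read 10.7 there and -0.570 to 4.02 on the other 7 arrays. miR-341, within Rian, read 11.6 there and 0.617 to 10.8 elsewhere. miR-411* read 3.77 there and -17.2 to 0.625 elsewhere. miR-433* read 1.59 there and -0.452 to 3.65 elsewhere. Detection on db/+ replicate 1 alone also held for 15 of the 52 members (28.8%) and for 73 of all 567 mouse miRNAs (12.9%). The signal of miR-433* was not highest there. Why detection fell on that array was not tested.

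The log2 signals of miR-494 and miR-487b, which lie in the same segment, gave a negative correlation over the 8 arrays that did not pass a threshold of 0.05. Pearson's r was -0.57 (exact permutation p = 0.135) and Spearman's rho was -0.57 (exact permutation p = 0.151), two-sided. Without db/+ replicates 1 and 4, the arrays farthest from the median of miR-494, r was -0.77 (exact permutation p = 0.0708) and rho -0.77 (exact permutation p = 0.103). This was the only pair computed, it was noticed in the same data, both values share each array's scaling factor, and 4 arrays per strain are too few for a value within strains.

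The members differed in base composition along the cluster. The median GC content was 59.1% over 15 matched upstream members and 45.5% over 33 from miR-379 to miR-410. It was 46.5% over the 18 matched members detected on at least 1 array and 53.5% over the 30 detected on none. These 2 contrasts overlap, since 18 of all 20 detected members lay from miR-379 to miR-410. Upstream, the 2 detected members, miR-770-3p and miR-370, had 72.7% and 68.2%, above the median of that segment. Of the 20, 15 were detected on db/+ replicate 1 alone. Whether composition goes with detection within a segment was not tested.

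Of the marker lists for other liver cells, the 4 leukocyte markers were all detected somewhere. Of these, miR-150 was detected on db/+ replicate 1 alone and miR-142-5p on db/+ replicates 1 and 3 alone. The 2 tested (miR-142-3p and miR-223) both passed limma's test, against 15.0% of all 127 miRNAs tested. The summed scaled signal of the list was 367 to 492 in db/+ and 196 to 281 in db/db. Of the stellate and smooth muscle list, 3 markers were on the array, 2 were tested and 0 passed. Its sums were 45.6 to 69.2 in db/+ and 61.8 to 82.9 in db/db. With 2 markers tested in each list, these counts say little against the 15.0%.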
